A study of Mus musculus with 12 samples.

Results

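The late response to TNF-α, at 24 h, was set against the early response, at 1.5 h, in mouse embryonic fibroblasts (MEFs) that carry the NF-κB subunit RelA. The comparison used 4 of the 12 bead arrays of the study: S6-/- cells, in which *Sirt6* is deleted and RelA is present, and wild-type (WT) cells at 24 h, and S6-/- and WT cells at 1.5 h. There is 1 array for each condition, and the times were paired within genotype. All 4 cultures were primary MEFs of littermate embryos and had received TNF-α at 20 ng/mL. How many embryos gave each culture is not given in the sources used here, so the genotypes may also differ as cell preparations. No untreated 24 h culture was analysed here, so the duration of TNF-α and the time in culture cannot be told apart. A gene was tested, by its brightest probe, where 1 or more of these 4 arrays reached an intensity of 100, which gave 5892 of the 16593 named genes on the array.

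TNF-α is a cytokine that binds receptors on fibroblasts and activates the kinase that destroys IκB proteins, which releases NF-κB dimers, many of them containing RelA, into the nucleus. MAP kinases are activated in parallel and act through AP-1, a dimer of Fos and Jun proteins. Early target genes encode chemokines, transcription factors and the inhibitors that end the signal, while matrix-degrading proteases and other secreted proteins typically accumulate later. Sirt6 is a histone deacetylase of the sirtuin family that the study examined as a restraint on RelA target genes.

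The deleted gene was read first. *Sirt6* had an intensity of -3.51 on the S6-/- array and 42.0 on the WT array at 24 h, and of -0.279 on the S6-/- array and 44.2 on the WT array at 1.5 h, below the limit of 100 for testing on all 4. *Rela* had intensities of 1251 (S6-/-) and 1221 (WT) at 24 h, against 1442 (S6-/-) and 1246 (WT) at 1.5 h. Of 13 fibroblast markers, 12 reached 100, with vimentin (*Vim*) at 9213 to 11838. Of 11 macrophage and blood cell markers, 6 reached 100 and 4 (*Ptprc*, *Itgam*, *Fcer1g* and *Hba-a1*) were at or under the floor of 16 on all 4 arrays. Across the tested genes the 24 h and 1.5 h arrays of 1 genotype correlated at 0.978 (S6-/-) and 0.989 (WT), while the S6-/- and WT arrays of 1 time correlated at 0.941 at 24 h and 0.939 at 1.5 h.

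In both genotypes the late cells held far more RNA for the matrix metalloproteinases *Mmp3*, *Mmp13*, *Mmp10* and *Mmp9*, for the chemokines *Ccl5* and *Cxcl16* and for the acute phase gene *Saa3*. They held less RNA for the natriuretic peptide *Nppb*, the chemokine *Cxcl10*, elastin (*Eln*) and the matrix protein *Mgp*. At an adjusted p under 0.05 from limma, 39 genes (0.662% of those tested) were higher and 105 (1.78%) were lower at 24 h than at 1.5 h. A gene's change is the mean of its 24 h minus 1.5 h differences of log2 intensity in the S6-/- and WT cells, and the median change over all tested genes was -0.03. Higher genes were 27.1% of those called, and 44.0% after quantile normalization of the arrays, which left 11 higher and 14 lower genes. With 1 residual degree of freedom per gene, the standard errors came almost wholly from the spread shared by all genes and lay between 0.184 and 0.205, so the test acted as a limit on the size of the change. Without pairing the times by genotype, limma called 0 genes, with 60 at an unadjusted p under 0.05, against 569 such genes with the pairing. Most single calls were lost under some of the other settings, as the closing section gives. The smallest change called was 0.61 in size and the largest not called was 0.64.

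**Figure D1:**
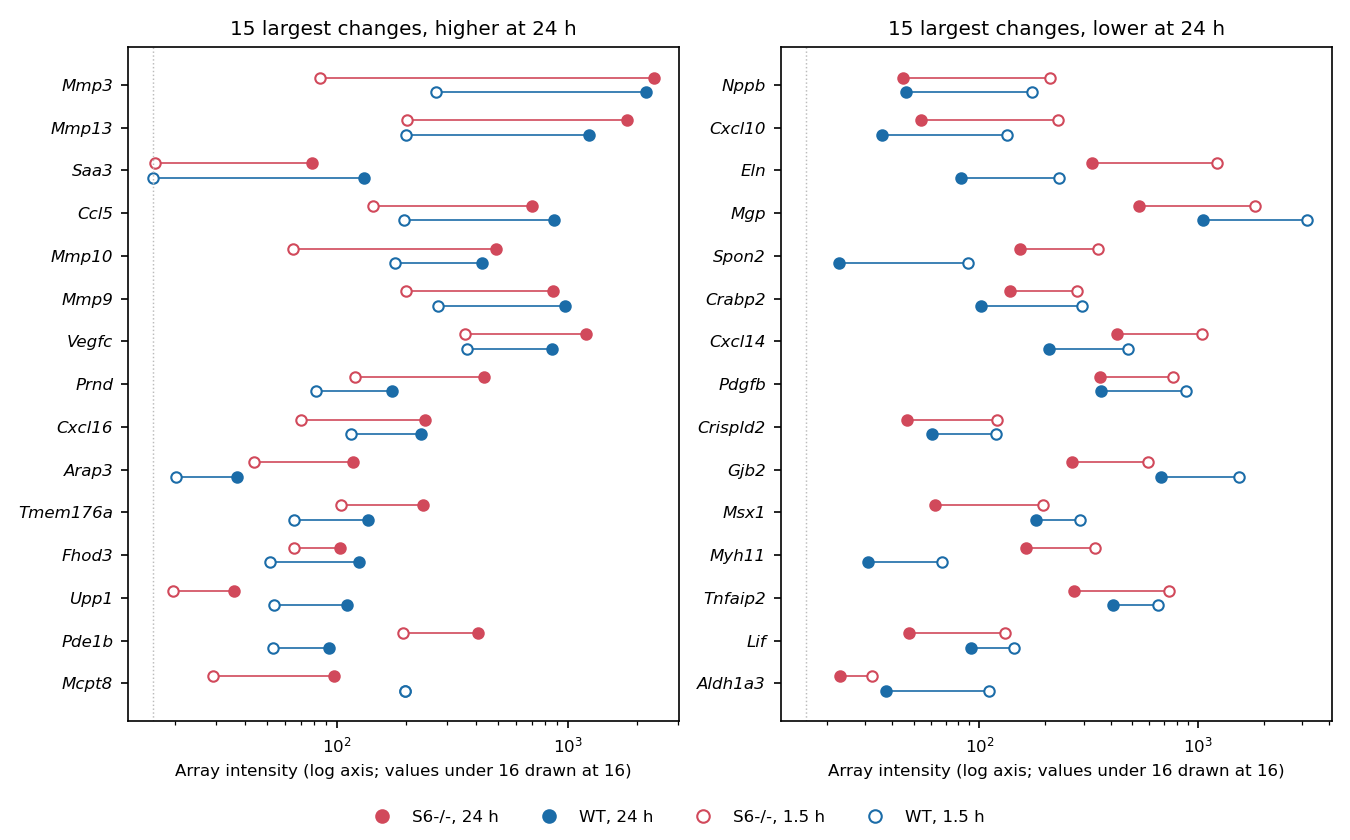
Array intensity (log axis, values under 16 drawn at 16) of the 15 genes with the largest called changes in each direction, with filled points for 24 h and open points for 1.5 h, red for S6-/- and blue for WT cells, 1 array per point. Mmp3 reached 2372 (S6-/-) and 2184 (WT) at 24 h, and every pair of points runs the same way in both genotypes, although the Mcpt8 pair in WT cells coincides.

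The 2 largest changes, those of *Mmp3* and *Mmp13*, belonged to matrix metalloproteinases (MMPs), enzymes that cut collagens and other matrix proteins, and *Mmp10* and *Mmp9* also rose. *Mmp3* (stromelysin-1) had intensities of 2372 (S6-/-) and 2184 (WT) at 24 h, against 85.0 (S6-/-) and 268 (WT) at 1.5 h. Its change was 3.91 (standard error 0.20, adjusted p = 5.19e-33), a 15.1-fold mean increase, and it was larger in S6-/- cells (4.80) than in WT cells (3.03). *Mmp13*, an interstitial collagenase, had intensities of 1814 (S6-/-) and 1239 (WT) at 24 h, against 201 (S6-/-) and 199 (WT) at 1.5 h. The *Mmp13* arrays of the 2 genotypes were almost equal at 1.5 h and both rose, by 3.18 in S6-/- and 2.64 in WT cells (mean 2.91, adjusted p = 4.11e-26). *Mmp10* (stromelysin-2) had intensities of 489 (S6-/-) and 424 (WT) at 24 h, against 64.5 (S6-/-) and 178 (WT) at 1.5 h. Like *Mmp3*, it was lower in S6-/- than in WT cells at 1.5 h and slightly higher at 24 h, and its mean change was 2.09 (adjusted p = 4.15e-15). *Mmp9* (gelatinase B) had intensities of 862 (S6-/-) and 971 (WT) at 24 h, against 200 (S6-/-) and 274 (WT) at 1.5 h, a change of 1.97 (adjusted p = 1.08e-15). For each of these 4 genes both 24 h arrays were above both 1.5 h arrays.

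*Mmp13*, *Mmp3* and *Mmp10* lie within 238 kb of chromosome 9 (GRCm38.p6), in a cluster with other MMP genes between them. The bases before their start sites are shown because 1 feature recurs there. In RefSeq's promoter table each of the 3 holds an AP-1 motif (TGANTCA, either strand), at bases -46 to -40 of *Mmp3*, -63 to -57 of *Mmp10* and -35 to -29 of *Mmp13*, in capitals below. All are on the plus strand, from -90 to -1 of the start, at chr9:7445732-7445821 for *Mmp3*, chr9:7502252-7502341 for *Mmp10* and chr9:7272424-7272513 for *Mmp13*.
Mmp3: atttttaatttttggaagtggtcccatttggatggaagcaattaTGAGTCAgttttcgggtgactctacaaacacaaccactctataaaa
Mmp10: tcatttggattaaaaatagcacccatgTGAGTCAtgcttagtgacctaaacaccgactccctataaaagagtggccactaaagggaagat
Mmp13: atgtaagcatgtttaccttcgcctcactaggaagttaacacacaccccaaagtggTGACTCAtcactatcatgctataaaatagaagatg

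The motif was present in the 250 bases before the start of 266 (5.47%) of the 4865 tested genes with an entry, of 2113 (7.82%) of all 27025 genes in the table, of 6 of the 26 higher genes with an entry and of 9 of the 69 lower genes with an entry. A match describes these letters and does not show that a factor bound there. No consensus κB motif was found in the 3 windows of 250 bases.

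Of the 16 measured MMPs, related proteases and inhibitors, 5 rose and 1 fell (31.2% and 6.25%, against 0.662% and 1.78% of all tested genes), and their median change was -0.06. The fifth to rise was *Adamts7*, a secreted protease of the ADAMTS family, with intensities of 66.9 (S6-/-) and 102 (WT) at 24 h, against 41.6 (S6-/-) and 52.6 (WT) at 1.5 h (change 0.82, adjusted p = 0.00206). *Adamts7* was tested only because the WT array at 24 h, where it was highest, passed the limit of 100. *Timp3*, which encodes a matrix-bound inhibitor of metalloproteinases, fell by 0.81 (adjusted p = 0.0028), with intensities of 1528 (S6-/-) and 1385 (WT) at 24 h, against 2417 (S6-/-) and 2675 (WT) at 1.5 h. The gelatinase *Mmp2* and the membrane-anchored activator *Mmp14* were already bright, and their changes of -0.23 and -0.29 did not pass the test. *Mmp12*, the macrophage elastase, stayed under 100 at 15.6 (S6-/-) and 33.5 (WT) at 24 h, against -9.55 (S6-/-) and 5.67 (WT) at 1.5 h.

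Chemokines, which draw leukocytes into tissue, moved both ways, with 3 of 13 measured genes higher and 5 lower. These were 23.1% and 38.5%, against 0.662% and 1.78% of all tested genes, and the same background applies to the calls of each list below. *Ccl5* (RANTES), which attracts T cells and monocytes, had intensities of 698 (S6-/-) and 869 (WT) at 24 h, against 144 (S6-/-) and 197 (WT) at 1.5 h. The rise was alike in S6-/- (2.28) and WT cells (2.14), with a mean of 2.21 (standard error 0.18, adjusted p = 1.76e-18). *Cxcl16*, a transmembrane chemokine, had intensities of 240.3 (S6-/-) and 232 (WT) at 24 h, against 70.2 (S6-/-) and 115 (WT) at 1.5 h, a change of 1.39 (adjusted p = 1.13e-08). *Ccl9* rose by 0.65 on average (adjusted p = 0.0355), and nearly all of the rise was in S6-/- cells (1.13, against 0.18 in WT cells).

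The chemokines that fell included *Cxcl10*, a T cell attractant known as a target of interferon and NF-κB. It had intensities of 54.2 (S6-/-) and 35.6 (WT) at 24 h, against 230.2 (S6-/-) and 134 (WT) at 1.5 h, a change of -2.00 (standard error 0.18, adjusted p = 4.68e-16). *Cxcl1*, the neutrophil attractant KC, had intensities of 399 (S6-/-) and 719 (WT) at 24 h, against 940.3 (S6-/-) and 1054 (WT) at 1.5 h, a change of -0.89 (adjusted p = 6.83e-04). *Cxcl14*, a constitutive fibroblast chemokine, had intensities of 426 (S6-/-) and 208 (WT) at 24 h, against 1047 (S6-/-) and 481 (WT) at 1.5 h, a change of -1.25 (adjusted p = 2.09e-07). *Cx3cl1* (fractalkine) and *Ccl17* fell by 0.68 and 0.76. *Ccl2* (MCP-1), the monocyte attractant, remained bright at both times and did not pass the test, with intensities of 3784 (S6-/-) and 3676 (WT) at 24 h, against 2579 (S6-/-) and 4114 (WT) at 1.5 h.

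The promoters of *Cxcl10* and *Cxcl1* are shown as examples of early genes with κB motifs before the start, the sites that NF-κB dimers recognise. Capitals mark the κB matches of both and, in *Cxcl10*, also an AP-1 match at -74 to -68. *Cxcl10* is shown from -180 to -1 on the minus strand (chr5:92348890-92349069), with κB matches at -159 to -150 and, overlapping, at -104 to -94. *Cxcl1* is shown from -90 to -1 on the plus strand (chr5:90891155-90891244), with overlapping κB matches at -71 to -61.
Cxcl10: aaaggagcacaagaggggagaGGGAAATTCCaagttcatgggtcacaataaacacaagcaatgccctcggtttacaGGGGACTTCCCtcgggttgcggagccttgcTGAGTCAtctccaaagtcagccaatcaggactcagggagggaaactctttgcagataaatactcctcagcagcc
Cxcl1: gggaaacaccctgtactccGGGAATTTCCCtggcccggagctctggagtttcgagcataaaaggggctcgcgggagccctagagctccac

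The κB motif was found in the 250 bases before the start of 530 (10.9%) of the 4865 tested genes with an entry and of 2225 (8.23%) of all genes in the table. It was found in 6 of 26 higher genes (23.1%) and in 12 of 69 lower genes (17.4%). The lower genes with a match were *Cxcl10*, *Cxcl1*, *Irf1*, *Lif*, *Nfkbie*, *Tnfaip2*, *Trex1*, *Egr2*, *Col6a2*, *Des*, *Ednrb* and *Gjb2*. *Tmem176a* and *Tmem176b*, membrane protein genes that lie head to head on chromosome 6, are both among the higher genes, and the windows before their starts overlap and share a κB match.

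Of 13 measured cytokine, acute phase and prostaglandin genes, 1 rose and 2 fell (7.69% and 15.4%, against 0.662% and 1.78% of all tested genes). *Saa3*, an acute phase serum amyloid gene of mouse fibroblasts and macrophages, had intensities of 78.2 (S6-/-) and 131 (WT) at 24 h, against 16.4 (S6-/-) and 1.22 (WT) at 1.5 h. Because its WT value at 1.5 h lies under the floor of 16, the fitted change of 2.65 (standard error 0.19, adjusted p = 5.98e-23) understates the difference. *Lif*, a cytokine of the interleukin-6 family, had intensities of 47.4 (S6-/-) and 91.9 (WT) at 24 h, against 131 (S6-/-) and 144 (WT) at 1.5 h (change -1.06, adjusted p = 3.47e-05). *Il1rn*, the interleukin-1 receptor antagonist, fell by 0.81 on average, by 1.34 in S6-/- and by 0.29 in WT cells. *Csf1*, the macrophage growth factor, had intensities of 1108 (S6-/-) and 975 (WT) at 24 h, against 1759 (S6-/-) and 1357 (WT) at 1.5 h, and its change of -0.57 did not pass the test (adjusted p = 0.0743). *Il6* stayed under 100 on all 4 arrays, at 66.1 (S6-/-) and 27.9 (WT) at 24 h, against 84.7 (S6-/-) and 53.3 (WT) at 1.5 h.

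A list of NF-κB feedback inhibitors and related TNF-induced genes was lower at 24 h in both genotypes for 7 of 10 measured genes. Over all tested genes this held for 1933 of 5892. The median change of the list was -0.22, and 2 of the 10 passed as lower (20%, against 1.78% of all tested genes). *Tnfaip2* and *Tnfaip8* count among the 7 as TNF-induced genes, not as inhibitors. *Nfkbie*, which encodes IκBε, had intensities of 102 (S6-/-) and 116 (WT) at 24 h, against 163 (S6-/-) and 188 (WT) at 1.5 h (change -0.68, adjusted p = 0.0179). *Tnfaip2*, a TNF-induced gene, had intensities of 270.0 (S6-/-) and 408 (WT) at 24 h, against 739 (S6-/-) and 655 (WT) at 1.5 h (change -1.07, adjusted p = 2.52e-05). *Nfkbia* (IκBα) had intensities of 824 (S6-/-) and 1114 (WT) at 24 h, against 1451 (S6-/-) and 1221 (WT) at 1.5 h, and *Tnfaip3* (A20) had 404 (S6-/-) and 210 (WT) at 24 h, against 536 (S6-/-) and 287 (WT) at 1.5 h. Both were lower at 24 h in each genotype without passing the test (changes of -0.47 and -0.43). The other 3 genes of the list did not have lower values in both genotypes. *Tnip1*, an A20-binding partner, was higher in both without passing, with 607 (S6-/-) and 594 (WT) at 24 h, against 402 (S6-/-) and 467 (WT) at 1.5 h (change 0.47, adjusted p = 0.233). The deubiquitinase genes *Cyld* and *Otulin* had differences of 0.32 and 0.01 in S6-/- cells and of -0.10 and -0.08 in WT cells.

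Of 17 immediate early transcription factors, 4 fell (23.5%, against 1.78% of all tested genes) and none rose. Their median change was -0.33, and 12 were lower in both genotypes (1933 of 5892 over all tested genes). *Irf1*, an interferon regulatory factor, had intensities of 947 (S6-/-) and 964 (WT) at 24 h, against 2443 (S6-/-) and 1457 (WT) at 1.5 h (change -0.98, adjusted p = 1.44e-04). *Egr2*, a zinc finger factor, had intensities of 233 (S6-/-) and 500 (WT) at 24 h, against 523 (S6-/-) and 853 (WT) at 1.5 h (change -0.97, adjusted p = 1.44e-04). *Fosl1* and *Junb*, which encode AP-1 subunits, fell by 0.96 and 0.64, and in both the fall was steeper in S6-/- cells (-1.54 and -1.13) than in WT cells (-0.37 and -0.14). *Fos* and *Jun* themselves had changes of -0.35 and -0.33 that did not pass. The feedback regulator *Errfi1*, an inhibitor of the EGF receptor, fell by 0.69 (adjusted p = 0.017). *Pdgfb*, a growth factor for mesenchymal cells, had intensities of 358 (S6-/-) and 360 (WT) at 24 h, against 773 (S6-/-) and 880 (WT) at 1.5 h (change -1.20, adjusted p = 7.64e-07).

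Leukocyte adhesion genes and receptors showed smaller differences. *Icam1*, the ligand of leukocyte integrins, had intensities of 294 (S6-/-) and 148 (WT) at 24 h, against 399 (S6-/-) and 263 (WT) at 1.5 h (change -0.63, adjusted p = 0.0369). *Jam2*, a junctional adhesion molecule, also fell (-0.87). These were the 2 that passed among 6 measured adhesion genes (33.3%, against 1.78% of all tested genes). Of 17 genes of the TNF receptor superfamily and its survival factors, only *Cd40* passed, with intensities of 529 (S6-/-) and 125 (WT) at 24 h, against 343 (S6-/-) and 74.3 (WT) at 1.5 h (change 0.69, adjusted p = 0.0172). Among 6 measured MHC class I and immunoproteasome genes, *H2-D1*, a class I heavy chain, rose by 0.70 (adjusted p = 0.0142). None of the 20 measured interferon response genes passed, and their median change was -0.03.

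**Figure D2:**
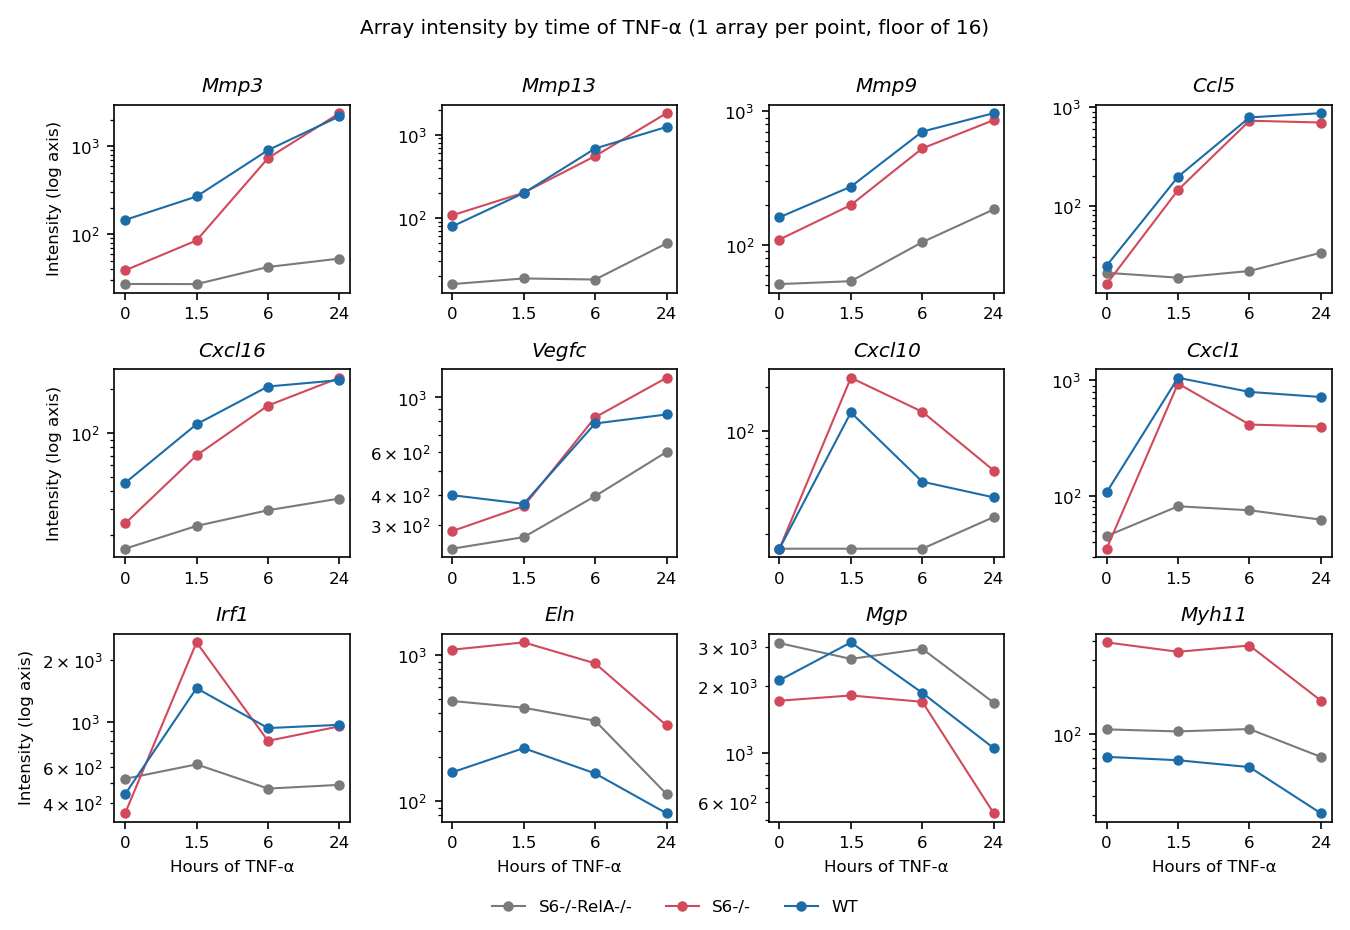
Array intensity (log axis, floor of 16) of 12 genes at 0, 1.5, 6 and 24 h of TNF-α in S6-/-RelA-/- (grey), S6-/- (red) and WT (blue) cells, 1 array per point. In the RelA-bearing cells Mmp3, Mmp13 and Mmp9 climb through 24 h, Cxcl10, Cxcl1 and Irf1 are highest at 1.5 h, and Eln, Mgp and Myh11 have their lowest value at 24 h.

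The untreated 0 h arrays, which took no part in the comparison, place the calls in time. With a step of 1.5-fold in both genotypes, 28 of the 39 higher genes were above 0 h at 24 h, and 10 of these were already above 0 h at 1.5 h, among them *Mmp3*, *Mmp9*, *Mmp10*, *Mmp13*, *Ccl5* and *Cxcl16*. *Saa3* and *Vegfc*, a lymphatic growth factor, were above 0 h at 24 h without such a step at 1.5 h. *Vegfc* had intensities of 1204 (S6-/-) and 852 (WT) at 24 h, against 359 (S6-/-) and 367 (WT) at 1.5 h, and of 284 (S6-/-) and 398 (WT) at 0 h (change from 1.5 h to 24 h of 1.48, adjusted p = 8.02e-10). Of the 105 lower genes, 17 were above 0 h at 1.5 h, 28 were below 0 h at 24 h, 1 of these (*Nppb*) was in both groups, and 61 met neither step in both genotypes. The first group held *Cxcl10*, *Cxcl1*, *Irf1*, *Lif*, *Pdgfb*, *Nfkbie*, *Icam1* and *Tnfaip2*, and 7 of its 17 genes were still above 0 h at 24 h. These classes share arrays with the calls, and the WT 0 h array stood apart from the other WT arrays (correlations of 0.964 to 0.968, against 0.989 to 0.993 among the others), so they are given as a description.

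The genes below their untreated level at 24 h included several that encode matrix and contractile proteins. *Eln* (elastin) had intensities of 329 (S6-/-) and 82.6 (WT) at 24 h, against 1219 (S6-/-) and 231 (WT) at 1.5 h, a change of -1.69 (standard error 0.18, adjusted p = 2.86e-12). *Mgp*, the matrix Gla protein that blocks calcification, had intensities of 536 (S6-/-) and 1053 (WT) at 24 h, against 1821 (S6-/-) and 3160 (WT) at 1.5 h, a change of -1.67 (adjusted p = 2.86e-12). *Spon2*, a secreted matrix protein, had intensities of 154 (S6-/-) and 22.8 (WT) at 24 h, against 349 (S6-/-) and 88.8 (WT) at 1.5 h, a change of -1.57 (adjusted p = 1.22e-10). The levels of *Eln* and *Spon2* in S6-/- cells at 24 h were above those of WT cells at 1.5 h, so for these genes the times separate only within a genotype.

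Of 40 collagen and matrix genes, 6 fell and 1 rose (15.0% and 2.50%), with a median change of -0.22, and 26 were lower in both genotypes (1933 of 5892 over all tested genes). Besides *Eln*, the genes that fell were the microfibril genes *Mfap4* (-0.86) and *Mfap5* (-0.73), the small proteoglycan *Ogn* (-0.83), the basement membrane gene *Nid2* (-0.65) and *Col6a2* (-0.66), whose fall was mainly in S6-/- cells (-1.13, against -0.19 in WT cells). The fibrillar collagens *Col1a1*, *Col1a2* and *Col3a1* had changes of -0.51, -0.40 and -0.37 that did not pass. *Dcn* (decorin) rose, with intensities of 449 (S6-/-) and 292 (WT) at 24 h, against 268 (S6-/-) and 203 (WT) at 1.5 h (change 0.63, adjusted p = 0.0369).

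Contractile genes and targets of serum response factor were lower at 24 h in both genotypes for 20 of 22 measured members, against 1933 of 5892 of all tested genes, with a median change of -0.30. *Myh11*, the smooth muscle myosin heavy chain, had intensities of 164 (S6-/-) and 30.8 (WT) at 24 h, against 340 (S6-/-) and 67.8 (WT) at 1.5 h (change -1.09, adjusted p = 8.57e-06). *Des* (desmin) had intensities of 923 (S6-/-) and 54.2 (WT) at 24 h, against 1198 (S6-/-) and 119 (WT) at 1.5 h, and fell more in WT (-1.14) than in S6-/- cells (-0.38). These were the 2 members that passed, while *Actg2*, *Lmod1* and *Tagln* had changes of -0.60, -0.56 and -0.38. *Mylk*, the myosin light chain kinase outside that list, fell by 1.00 (adjusted p = 6.67e-05). The summed intensity of 17 skeletal muscle markers, which also include *Des*, was 10715 (S6-/-) and 2899 (WT) at 24 h, against 12840.0 (S6-/-) and 4242 (WT) at 1.5 h. Most of each sum came from *Acta1*, with 6215 (S6-/-) and 2607 (WT) at 24 h, against 7569 (S6-/-) and 3879 (WT) at 1.5 h. Of the 17 markers 9 reached 100 and *Des* alone passed. The lineage factors *Myod1*, *Myf5* and *Myf6* were under the floor on all 4 arrays. A further lineage factor, *Myog* (myogenin), was above the floor on all 4, with 39.4 (S6-/-) and 25.5 (WT) at 24 h, against 39.3 (S6-/-) and 19.6 (WT) at 1.5 h. *Myl1*, a skeletal myosin light chain, had intensities of 1125 (S6-/-) and -0.554 (WT) at 24 h, against 1256 (S6-/-) and 15.4 (WT) at 1.5 h, under the floor on both WT arrays only. The part of muscle cells in the lower contractile values was not tested.

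Among 22 genes of the TGF-β, BMP and YAP pathways, *Tgfb3*, the target *Tgfbi* and the BMP target *Id1* fell (-0.72, -0.69 and -0.76), and none rose. The falls made up 13.6% of that list, against 1.78% of all tested genes. *Tgfb3* had intensities of 629 (S6-/-) and 641 (WT) at 24 h, against 1026 (S6-/-) and 1064 (WT) at 1.5 h. Of 12 genes of the IGF axis, *Igfbp2*, *Igfbp4* and *Igfbp6*, which encode IGF-binding proteins, fell (-0.94, -0.71 and -1.03), which is 25% of the list. *Igfbp3* had -1.58 in S6-/- and 0.31 in WT cells and did not pass. *Nppb*, the natriuretic peptide BNP, had the largest fall of all, with intensities of 44.5 (S6-/-) and 46.3 (WT) at 24 h, against 211 (S6-/-) and 174 (WT) at 1.5 h (change -2.08, adjusted p = 6.81e-17). *Crabp2*, a retinoic acid carrier, *Gjb2* (connexin 26), *Msx1*, a homeobox factor, and *Aldh1a3*, an enzyme of retinoic acid synthesis, fell by 1.28, 1.17, 1.15 and 1.03.

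**Figure D3:**
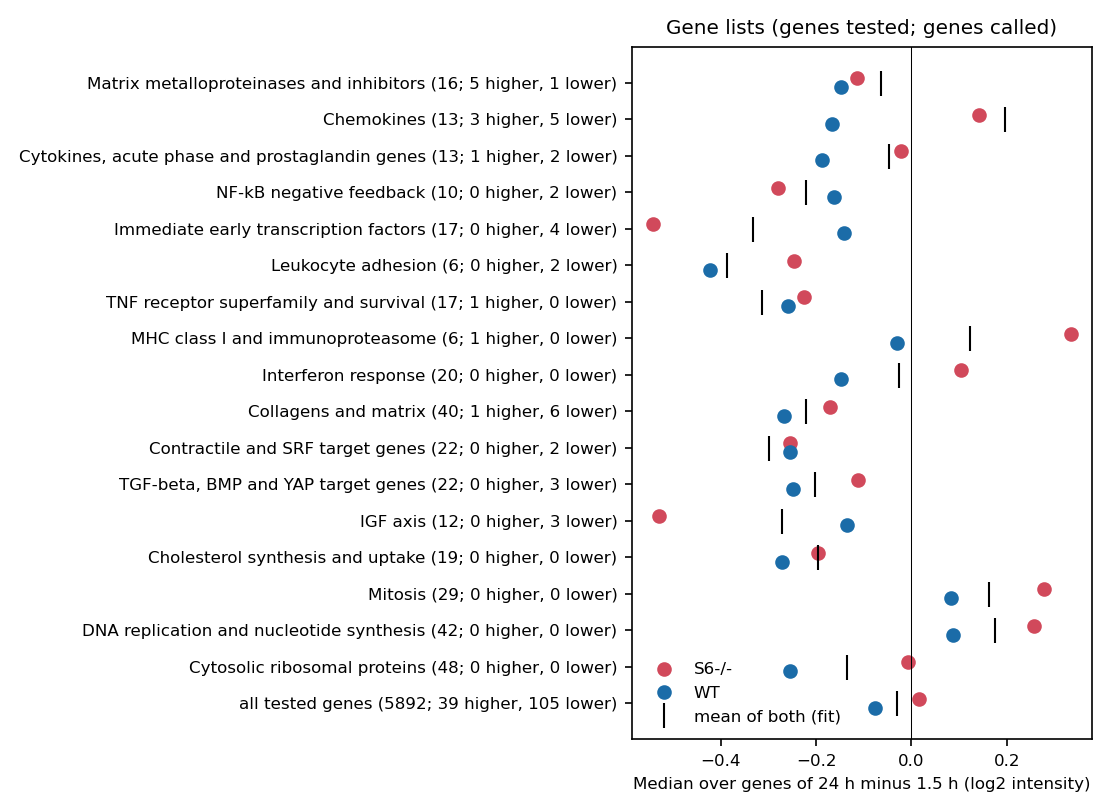
Median over the tested genes of each list of the 24 h minus 1.5 h difference (log2 intensity) in S6-/- (red) and WT (blue) cells and of the fitted mean of both (black bar), with the number of genes tested and called beside each name. The fitted median of the contractile list lies at -0.30 and of the immediate early list at -0.33, beside -0.03 over all tested genes, and ribosomal proteins lie apart in the genotypes at -0.01 in S6-/- and -0.25 in WT cells.

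Other lists held few or no calls. Medians were 0.16 for 29 mitosis genes, 0.17 for 42 DNA replication genes and -0.20 for 19 genes of cholesterol synthesis, all with no member called. Cytosolic ribosomal proteins had a median of -0.01 in S6-/- and -0.25 in WT cells, and proteasome subunits of 0.19 in S6-/- and -0.23 in WT cells, with no call in either list. Of 21 measured genes that the study names in its text, a list chosen with these samples in view, 1 passed: *Tinagl1*, a secreted matrix-associated protein, had intensities of 280.1 (S6-/-) and 106 (WT) at 24 h, against 618 (S6-/-) and 179 (WT) at 1.5 h (change -0.95, adjusted p = 1.90e-04).

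Of 6 tested macrophage markers, 1 passed as higher (16.7%, against 0.662% of all tested genes). In both genotypes 4 were higher at 24 h and 2 were lower. *Lyz2*, a lysozyme of myeloid cells, had intensities of 373 (S6-/-) and 1513 (WT) at 24 h, against 166 (S6-/-) and 1329 (WT) at 1.5 h (change 0.68, adjusted p = 0.0258). The summed intensity of the 11 markers was 1436 (S6-/-) and 5489 (WT) at 24 h, against 845 (S6-/-) and 4878 (WT) at 1.5 h, most of it from *Lyz1* and *Lyz2*. *Laptm5*, a lysosomal membrane protein of blood cells, had intensities of 138 (S6-/-) and 346 (WT) at 24 h, against 167 (S6-/-) and 455 (WT) at 1.5 h, and did not pass. *C1qb*, a complement gene of macrophages that was not in that list, fell, with 15.5 (S6-/-) and 83.5 (WT) at 24 h, against 28.9 (S6-/-) and 130 (WT) at 1.5 h. In MEF RNA a change in the number of such cells and a change in RNA per cell cannot be told apart, and their part in the rise of *Saa3* or the chemokines was not tested.

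**Figure D4:**
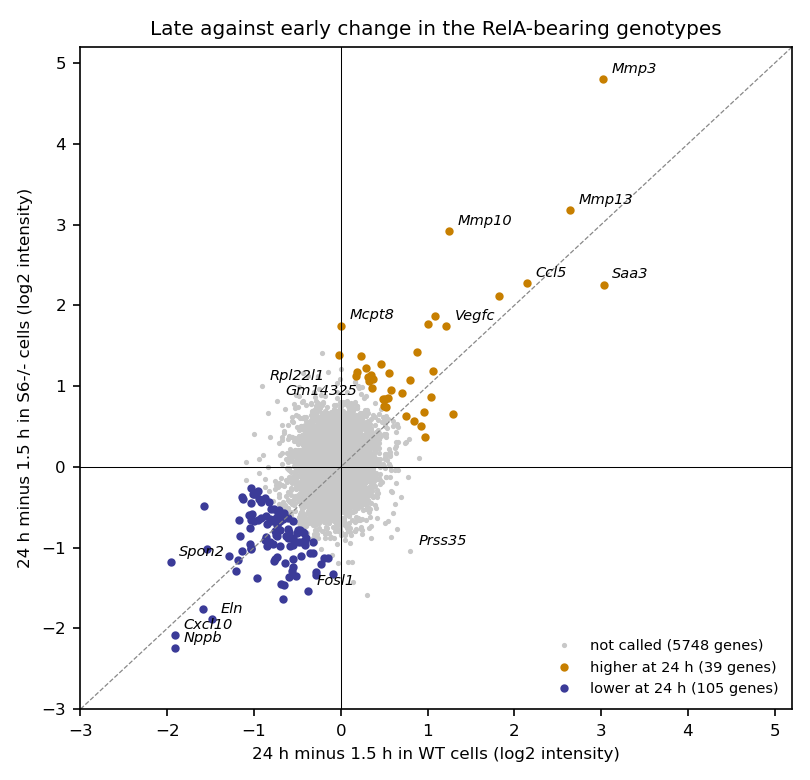
Difference of 24 h minus 1.5 h in S6-/- cells (vertical) against WT cells (horizontal), log2 intensity, for 5892 genes, with genes called higher in orange, lower in blue and the rest in grey, and a dashed line of equal change. Most called genes lie in the same-sign quadrants, and Mmp3 and Mmp10 lie well above the line of equal change.

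The largest changes had the same sign in both genotypes, while over all genes the genotypes shared little. Over all 5892 genes the S6-/- and WT changes correlated at r = 0.296 (Spearman's rho 0.130), points that share the scaling of each array, and 3111 genes (52.8%) had the same sign. Both genotypes changed by at least 0.5 in the same direction for 114 genes and in opposite directions for 19. Among the 144 called genes 143 had the same sign, which the test partly fixes, and in 91 the change was larger in S6-/- cells. It was larger in S6-/- cells for 31 of the 39 higher and 60 of the 105 lower genes, while the standard deviation of all changes was 0.361 in S6-/- and 0.26 in WT cells. *Mcpt8*, a mast cell protease gene, was called on a change of 1.75 in S6-/- cells with 0.01 in WT cells, and *Vcpip1*, a deubiquitinase gene, on 1.38 in S6-/- with -0.02 in WT cells. Both genotypes changed by at least 0.5 for 24 of the higher and 71 of the lower genes. By a rule without a test, added after the data were seen, at least 2-fold in both genotypes, 10 genes (0.17%) were higher and 12 (0.204%) were lower.

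The same 24 h against 1.5 h difference was read in S6-/-RelA-/- cells, which lack both proteins and are represented by 1 array at each time. Their difference from the RelA-bearing cells was fitted with limma over 6 arrays, for the genes chosen by intensity on the 4 RelA-bearing arrays. A gene bright only in S6-/-RelA-/- cells could not enter this fit. *Mmp3*, *Mmp13*, *Ccl5*, *Saa3*, *Arap3*, *Cxcl5*, *Cxcl10* and *C1qb* were under the limit for testing at both times in S6-/-RelA-/- cells. They entered through RelA-bearing arrays alone, so the fit cannot show whether late changes are in general weaker without RelA. A single difference has no spread of its own, so the fit assumes that S6-/-RelA-/- cells vary like the RelA-bearing pair, and only under that assumption did 10 genes (0.17%) pass. Of the 39 genes higher in RelA-bearing cells, 31 were also higher at 24 h in S6-/-RelA-/- cells, with a median of 0.50 there and 0.80 in the RelA-bearing cells. Of the 105 lower genes, 94 were lower there too, with medians of -0.55 and -0.76. Over all tested genes the median in S6-/-RelA-/- cells was -0.04. The shares of all tested genes higher or lower there were not counted, so the 31 and 94 have no such background beside them. The called genes were chosen for large changes on the RelA-bearing arrays, which partly fixes the larger medians there. These medians therefore do not compare the strength of the response with and without RelA. These cells also differ in a Y-linked transcript: *Eif2s3y* had 768 and 827 on the 24 h and 1.5 h arrays of S6-/-RelA-/- cells and was under 3 on the 4 RelA-bearing arrays.

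*Mmp3* had intensities of 52.9 at 24 h and 27.1 at 1.5 h in S6-/-RelA-/- cells, a difference between the times of 0.96, and its change differed by -2.95 from that in RelA-bearing cells (fitted standard error 0.35, under that assumption). *Mmp13* had 49.4 at 24 h and 18.7 at 1.5 h there, a rise of 1.40, and its change differed by -1.51 from that in RelA-bearing cells. *Ccl5* had 33.3 and 18.6, a rise of 0.84, and its change differed by -1.37. *Saa3* stayed near the floor, with 11.6 at 24 h and 17.7 at 1.5 h, and its change differed by -2.79. *Cxcl5*, a neutrophil attractant, had 30.1 at 24 h and 88.4 at 1.5 h in S6-/-RelA-/- cells, against 246 (S6-/-) and 858 (WT) at 24 h and 132 (S6-/-) and 730.3 (WT) at 1.5 h. It fell in S6-/-RelA-/- cells and rose in the RelA-bearing cells, and its change differed by -2.12. *Cxcl10* was also near the floor in S6-/-RelA-/- cells, with 26.2 at 24 h and 14.2, under the floor, at 1.5 h. It had 3.83 at 0 h and 6.71 at 6 h there, so a late rise cannot be read from these values. With its 1.5 h value already under the floor, *Cxcl10* could not have shown a fall there, and its change differed by 2.71. *Mmp9* was not among the 10 genes: it had 185 at 24 h and 53.8 at 1.5 h in S6-/-RelA-/- cells, a difference of 1.78 beside 1.97 in RelA-bearing cells. *Vegfc* had 599 at 24 h and 268 at 1.5 h there, a difference of 1.16. *Eln* had 112 at 24 h and 436 at 1.5 h there, a difference of -1.97. After quantile normalization 0 of these differences passed in limma, and with a robust prior *Mmp3* did not (adjusted p = 1.00).

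**Figure D5:**
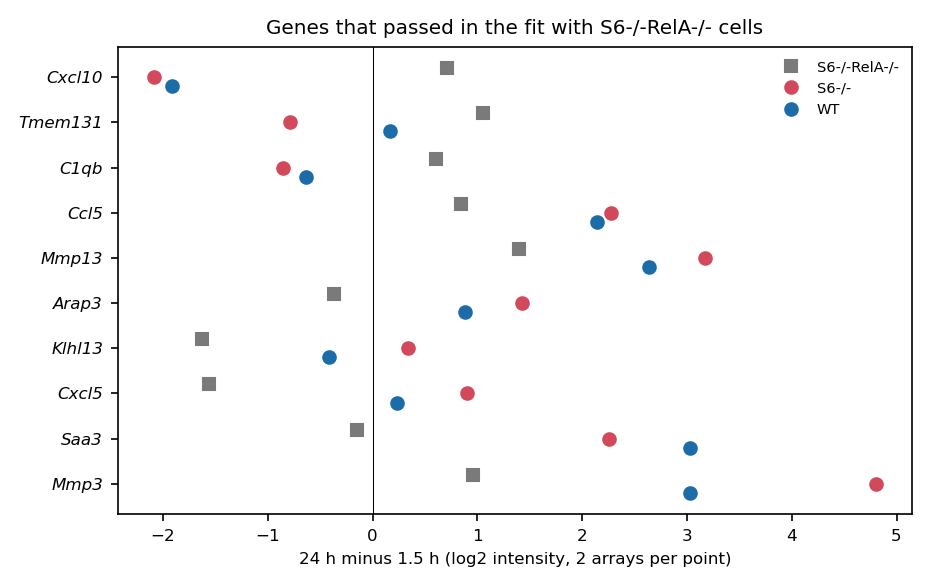
Difference of 24 h minus 1.5 h (log2 intensity) in S6-/-RelA-/- (grey squares), S6-/- (red) and WT (blue) cells for the 10 genes that passed in the 6-array fit, each point a difference of 2 arrays. Mmp3 lies at 0.96 in S6-/-RelA-/- cells beside 4.80 (S6-/-) and 3.03 (WT), and Cxcl10 runs the other way, at 0.71 beside -2.09 (S6-/-) and -1.91 (WT).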

How the data were processed

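The arrays were whole-genome Illumina mouse bead arrays hybridized with Cy5-labelled cRNA. The deposited values are linear intensities from GenomeStudio, which the submitters' processing notes name without a version. Their upper quartiles are similar (147 to 152) and 17.7% are negative. The 12 sample columns of a second, non-normalized table could not be assigned to samples and were not used. Of 25697 probes, 23978 had 1 gene symbol. Intensities below 16 were raised to 16 before log2, so changes of dim genes are understated. The 24 h against 1.5 h change was fitted with limma 3.58.1 (R 4.3.3), with genotype as the block, and Benjamini-Hochberg adjustment ran over all 5892 genes. With 1 array per condition, the fit had 1 residual degree of freedom per gene beside 106.6 from the prior. The p-values therefore follow the size of the mean change against a spread shared by all genes. That spread comes from differences between the changes of the 2 genotypes, not from replicates. A small p-value does not show that the 2 genotypes agree for that gene, and the number of arrays limits the precision. The fit was run on simulated data with equal changes in both genotypes and a spread shared by all genes. These are the fit's own assumptions, so that run could not test them. The 16 alternatives changed the filter, probe rule, prior, arrays, floor or scaling. Members and the 39 gene lists were chosen with earlier results of these data known. The naming rule took the 15 largest called changes each way, the 4 largest of each list and the 3 largest opposite changes. It also took all measured genes of the NF-κB feedback list, study genes and deleted genes. Other genes, such as *Cxcl1*, *Timp3*, *Adamts7*, *Mylk*, *Vcpip1*, *Trex1*, *Il6* and *Mmp12*, were named after their values were seen. Promoters are RefSeq's (GRCm38.p6), scanned with Python 3.11.15, and figures were drawn with matplotlib 3.10.9.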

Additional observations from a re-analysis of the deposited data

Results flagged for a closer look

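The 24 h minus 1.5 h change of 10 genes passed the limma test of its difference in S6-/-RelA-/- cells, which have 1 array per time and are assumed there to vary like the RelA-bearing cells. The signed difference from RelA-bearing cells was negative for *Mmp3* (-2.95), *Saa3* (-2.79), *Cxcl5* (-2.12), *Klhl13* (-1.59), *Arap3* (-1.52), *Mmp13* (-1.51) and *Ccl5* (-1.37). It was positive for *Cxcl10* (2.71), *Tmem131* (1.36) and *C1qb* (1.35). The sign does not give which change was larger in size. *Cxcl5*, for example, fell from 88.4 to 30.1 in S6-/-RelA-/- cells and rose in both RelA-bearing genotypes. *Klhl13* and *Tmem131* were not called between the times in RelA-bearing cells. Genes entered this test by their intensity on the RelA-bearing arrays. How many differences were negative or positive therefore does not compare the response with and without RelA.

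The 3 genes with the largest opposite changes in the RelA-bearing genotypes are given untested, because each genotype has 1 array per time. *Rpl22l1*, a ribosomal protein paralog, changed by 1.00 in S6-/- and by -0.91 in WT cells, with intensities of 666 (S6-/-) and 690 (WT) at 24 h, against 332 (S6-/-) and 1298 (WT) at 1.5 h. *Prss35* changed by -1.05 in S6-/- and by 0.80 in WT cells, and *Gm14325* by 0.81 in S6-/- and by -0.73 in WT cells.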

How the results depend on the processing

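The 62 called genes named in the text kept their direction in every alternative run, but of their 979 values there 537 stayed called. Only 7 of the 62 (*Mmp13*, *Mmp9*, *Ccl5*, *Saa3*, *Cxcl10*, *Eln* and *Mgp*) kept the call in all alternatives that tested them other than no filter and no genotype block. *Vcpip1* kept it in 2 of 15, *C1qb* in 3 of 15, *Ccl9*, *Ccl17* and *Junb* in 4 of 16, *H2-D1* in 4 of 15, *Icam1* in 5 of 16, *Nfkbie* in 5 of 15 and *Irf1* in 9 of 16. Higher genes numbered 24 with a limit of 200, 25 with a limit of 50 (65 lower), 22 with an offset of 50 and 11 after quantile normalization (14 lower). Fitting 8 arrays gave 10 higher and 29 lower genes. limma called 0 genes in either direction with no filter (919 at an unadjusted p under 0.05) and 0 with no genotype block (60 unadjusted). The rule of 2-fold in both genotypes gave 10 and 12. Leaving out 1 array from the 8-array model gave 5 to 29 higher and 5 to 49 lower genes: 29 and 49 without WT at 24 h, 6 and 7 without S6-/- at 24 h, 10 and 5 without WT at 1.5 h, and 5 and 7 without S6-/- at 1.5 h. The differences in S6-/-RelA-/- cells numbered 5 with a limit of 200 and with an intensity trend, 4 with a limit of 50 and 0 after quantile normalization.

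Uncalled changes that turned direction when 1 array was left out ranged from -0.0923 to 0.48 (*Ccl2*), -0.14 to 0.35 (*Cyld*), -0.49 to 0.58 (*Gm14325*), -1.34 to 0.06862 (*Igfbp3*), -0.36 to 0.28 (*Klhl13*), -0.89 to 0.64 (*Prss35*), -0.26 to 0.0263 (*Rela*), -0.66 to 0.75 (*Rpl22l1*), -0.0962 to 0.0247 (*Otulin*) and -0.66 to 0.04003 (*Tmem131*). *Klhl13* was also 0.03624 with a floor of 32 and 0.03608 with an offset of 50, and *Otulin* was 0.0108 after quantile normalization. The cause was not tested.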
